A study of Mus musculus with 19 samples.

Results

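The genes described here are the neuropilins, Nrp1 and Nrp2, and the secreted class 3 semaphorins, Sema3a to Sema3g. They were chosen by symbol, through the Ensembl identifiers of the count tables. All 9 were found among the 47069 genes of the tables, and all 9 had enough counts to be tested. Retinal ganglion cells (RGCs) whose axons turn back at the optic chiasm to the same side of the brain (iRGCs) were compared with RGCs whose axons cross the midline (cRGCs). The question was how the transcriptomes of these populations differ at E16.5, when most axons reach the chiasm.

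Both populations came from retinas of C57/DBA F1 mouse embryos at E16.5, with males and females pooled, and each had 3 RNA-seq libraries. All embryos carried Sun1-GFP, a nuclear envelope protein fused to GFP, in the Rosa26 locus under a CAG promoter, behind a stop cassette that Cre recombinase removes. The labels give the genotype of both groups as WT, so these alleles come from the study's methods. Those methods name the C57/DBA F1 strain for the electroporated embryos and give no strain for the sorted ones. In iRGC embryos, Cre was driven by the serotonin transporter gene in the transgenic ET33 Sert-Cre line (Slc6a4-Cre). In cRGC embryos, Cre was targeted into the Brn3b locus (Pou4f2-Cre), which most RGCs use, and the ventrotemporal (VT) retina, where iRGCs arise, was cut away before sorting. The Cre line and the retinal region thus differ with the population and cannot be told apart from it. Pou4f2 is also among the ganglion cell genes counted below, and an effect of the targeted allele on its count was not tested. Removal of the cassette is permanent, so GFP also marks the descendants of a cell that once had Cre, whatever they express later. GFP-positive cells were sorted, and their polyA RNA was sequenced. Genes took up 28193178 to 30874653 counted reads per library in iRGCs and 28274471 to 33638083 in cRGCs. The labels do not tie the 3 libraries of a population to separate litters, so p-values measure the spread between these samples.

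Class 3 semaphorins are secreted proteins that steer growth cones, mostly by repulsion. They bind neuropilins, which have short cytoplasmic tails and signal through plexins as partners, and Sema3e is the exception that binds Plexin D1 directly. Nrp1 is the main binding receptor of Sema3a and Nrp2 that of Sema3f, and Nrp1 is also a receptor for a VEGF-A isoform, which guides the crossing of RGC axons at the mouse chiasm.

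The start-site sequences of the 5 genes that differed between the populations are shown first, because the study followed the transcription factors Zic2, Pou4f1 and Lhx2/9 in these cells. RefSeq's table of windows for GRCm38.p6 runs from 250 bases before to 50 bases after a gene's start and had an entry for 7 of the 9 genes. Each line gives the 250 bases before the start and the first 10 bases after it, on the plus strand from 5′ to 3′, with the matches to 3 motifs in capitals. The windows are chr8:128358823-128359082 for Nrp1, chr1:62703067-62703326 for Nrp2, chr5:13396534-13396793 for Sema3a, chr5:14025026-14025285 for Sema3e and chr14:31217623-31217882 for Sema3g.
Nrp1: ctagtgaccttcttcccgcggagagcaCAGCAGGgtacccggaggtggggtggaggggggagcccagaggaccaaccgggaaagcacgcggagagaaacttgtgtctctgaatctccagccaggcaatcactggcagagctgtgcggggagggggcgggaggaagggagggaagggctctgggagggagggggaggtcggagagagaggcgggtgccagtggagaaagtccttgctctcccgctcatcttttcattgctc
Nrp2: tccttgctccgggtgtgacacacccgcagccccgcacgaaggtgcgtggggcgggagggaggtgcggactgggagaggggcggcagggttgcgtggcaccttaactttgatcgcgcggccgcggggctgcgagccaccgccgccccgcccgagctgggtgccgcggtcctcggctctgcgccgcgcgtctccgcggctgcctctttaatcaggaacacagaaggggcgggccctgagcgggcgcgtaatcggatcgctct
Sema3a: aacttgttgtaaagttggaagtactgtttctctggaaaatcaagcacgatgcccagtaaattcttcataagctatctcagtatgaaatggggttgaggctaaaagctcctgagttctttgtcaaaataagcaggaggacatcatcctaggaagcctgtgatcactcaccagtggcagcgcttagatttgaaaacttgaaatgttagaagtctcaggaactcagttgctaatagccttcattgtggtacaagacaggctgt
Sema3e: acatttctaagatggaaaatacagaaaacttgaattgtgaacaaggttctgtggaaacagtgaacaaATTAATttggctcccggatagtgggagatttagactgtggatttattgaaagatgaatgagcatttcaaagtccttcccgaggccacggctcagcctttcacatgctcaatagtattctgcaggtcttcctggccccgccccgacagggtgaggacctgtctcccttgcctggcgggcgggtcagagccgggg
Sema3g: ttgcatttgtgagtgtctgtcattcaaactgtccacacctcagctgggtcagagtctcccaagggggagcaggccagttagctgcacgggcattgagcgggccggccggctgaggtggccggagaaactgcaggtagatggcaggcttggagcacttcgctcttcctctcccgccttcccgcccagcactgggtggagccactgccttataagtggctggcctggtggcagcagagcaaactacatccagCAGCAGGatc
The letters searched on both strands were CAGCAGG for Zic factors, TAATTA for Lhx factors and ATTAAT for Pou4f factors, of which the last pair read the same on both strands and can overlap each other. Nrp1 held CAGCAGG 223 bases before its start, and Sema3g held it from base 1 of the transcript. Sema3e held ATTAAT 183 bases before its start. The windows of Nrp2, Sema3a, Sema3c and Sema3d held none of the motifs. Among the 32851 windows of the table, 10.5% held CAGCAGG or its complement, 5.29% held TAATTA and 4.75% held ATTAAT. Such a match is a description of letters only. The RefSeq starts of Nrp1, Nrp2, Sema3a and Sema3g lie inside the GENCODE genes, which begin further upstream. That of Sema3a, at chr5:13396784, is far inside its gene, which begins at chr5:13125414. The Sema3a window thus does not describe the sequence at the upstream end of the gene.

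Before the receptors and ligands are described, the libraries were checked against their labels. Slc6a4, the gene whose promoter drove Cre in iRGCs, had 2.06, 33.4 and 116 CPM in iRGC replicates 1, 2 and 3 and 48.1, 35.4 and 30.5 CPM in cRGC replicates 1, 2 and 3. CPM is the normalised read count of edgeR, scaled to the size of the library with TMM factors. iRGC replicate 1 was thus below every cRGC library for this gene, and Slc6a4 did not pass the test (log2 fold change 0.41, adjusted p = 0.768, edgeR, Benjamini-Hochberg). Zic2, the transcription factor of ipsilateral RGCs, had 133, 173 and 157 CPM against 57.0, 60.2 and 65.7 CPM and was higher in every iRGC library. Foxd1, a transcription factor of the ventrotemporal retina, had 23.9, 27.8 and 35.7 CPM against 5.15, 7.32 and 11.9 CPM and was also higher in every iRGC library (log2 fold change 1.84, edgeR, Benjamini-Hochberg adjusted p = 0.00177). Ephb1, an ipsilateral guidance receptor, had a log2 fold change of -0.26 and did not pass (edgeR, adjusted p = 0.499).

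The populations also differed in the level of ganglion cell genes. The summed level of 14 ganglion cell genes, such as Isl1, Rbpms, Gap43 and Stmn2, was 2483, 3487 and 5315 CPM in the iRGC libraries and 13787, 12463 and 15371 CPM in the cRGC libraries. Of these 14 genes, 13 were lower in iRGCs and Thy1 did not pass (edgeR, adjusted p = 0.121). Gap43, the most abundant of them per length, had 379, 510.2 and 895 CPM against 2389.8, 2094 and 2275 CPM. Of 16 retinal progenitor genes, 14 were higher in iRGCs, with a summed level of 10605, 9711 and 8428 CPM against 2069, 3256 and 2865 CPM. The 8 genes of neurogenic precursors, such as Atoh7 and Hes6, were all higher, with 1306, 1399.5 and 1289 CPM against 269, 493 and 405 CPM. The iRGC libraries therefore held RGC transcripts at a lower level and progenitor transcripts at a higher level than the cRGC libraries, without overlap in these sums. In such bulk samples, fewer cells of a type, less RNA per cell and less mature cells cannot be told apart. The study states that iRGCs at E16.5 are younger on average than cRGCs. The part of this age difference in the levels given here was not tested. The list also holds genes that ganglion cells can express to unlike degrees, such as Pou4f1, Isl2 and Sncg.

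Markers of blood vessels set iRGC replicate 2 apart. Cdh5, the cadherin of endothelial junctions, had 15.2, 81.3 and 0.158 CPM in iRGC replicates 1, 2 and 3 and 0 counts in each cRGC library. The summed level of 13 endothelial genes was 453, 681 and 436 CPM against 88.9, 109 and 72.1 CPM, and Cdh5, Tie1, Erg and Sox17 had 0 counts in all cRGC libraries. Kdr, the most abundant of them, gave 366, 320.5 and 418 CPM of the iRGC sums and 83.7, 103 and 67.6 CPM of the cRGC sums. Without Kdr the sums of the other 12 genes were 87.0, 361 and 18.0 CPM against 5.19, 6.42 and 4.52 CPM, so that Kdr made up most of the sum in iRGC replicates 1 and 3. For 8 mural cell genes the sums were 135, 280.0 and 111 CPM against 21.9, 32.6 and 23.3 CPM, led by Notch3. Notch3 gave 113, 117 and 83.5 CPM of the iRGC sums and 17.1, 26.7 and 18.6 CPM of the cRGC sums. It thus made up most of the mural sum in every library except iRGC replicate 2. For 7 erythroid genes the sums were 12.2, 92.7 and 15.2 CPM against 0, 5.11 and 0.290 CPM, led by Hbb-bs. Where a named neuropilin, semaphorin or pathway gene lost or gained its call without iRGC replicate 1 or 2, the value without that library is given.

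**Figure D1:**
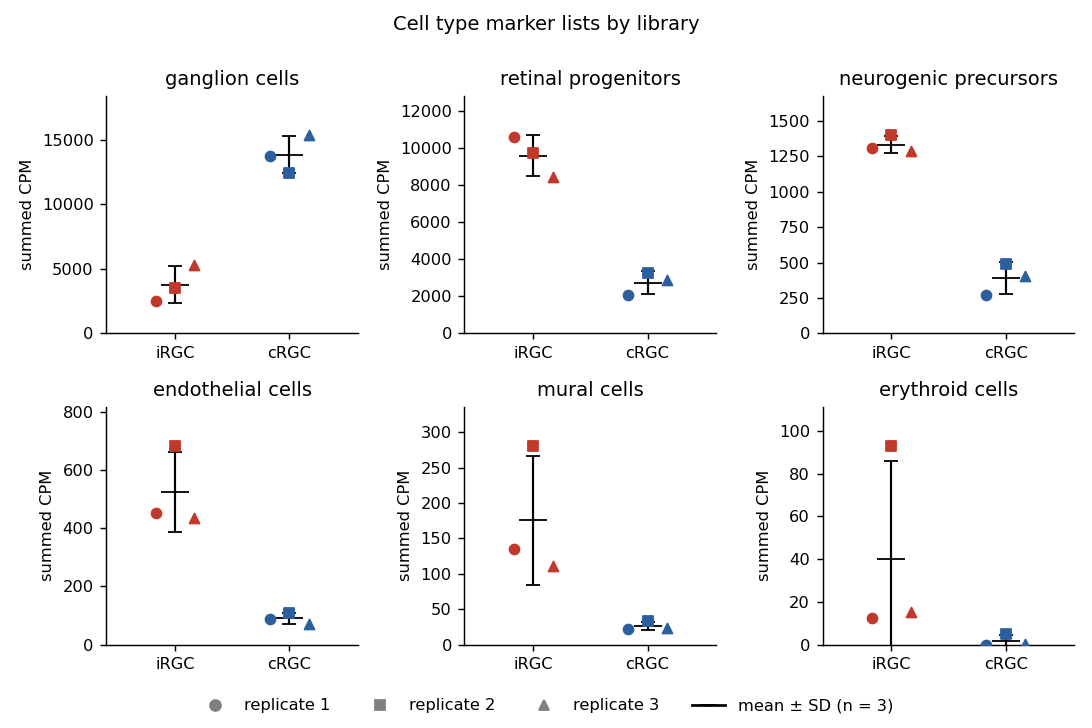
Summed CPM of 6 lists of cell type markers in each library, on linear axes from 0, with iRGCs in red and cRGCs in blue; symbols are replicates 1 to 3, and bars are the mean ± SD (n = 3), cut at 0 where the SD exceeds the mean. The ganglion cell sum lies between 2483 and 5315 CPM in iRGCs and between 12463 and 15371 CPM in cRGCs, the progenitor and precursor sums lie the other way, and iRGC replicate 2 is highest for endothelial, mural and erythroid genes.

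Among the 9 genes, 4 were lower in iRGCs (Nrp1, Nrp2, Sema3a and Sema3e), 1 was higher (Sema3g) and 4 did not pass the test. A gene passed at an adjusted p-value under 0.1 in edgeR's quasi-likelihood test with Benjamini-Hochberg adjustment. Of all 15941 tested genes, 23.1% were lower in iRGCs by this rule, 23.3% were higher and 46.4% passed in either direction. Nrp1, Sema3a and Sema3e also had an absolute log2 fold change above 1, which with the adjusted p-value held for 11.0% of all tested genes in the lower direction. The libraries of the populations did not overlap for 4 of the 9 genes (Nrp1, Sema3a, Sema3c and Sema3f), against 55.3% of all tested genes. The median log2 fold change of iRGCs over cRGCs was -0.75 for the 9 genes and -0.00 for all tested genes. These directions are those of CPM. Scaled to the ganglion cell genes, as given further on, the iRGC mean was higher for 94.8% of all tested genes, these 4 included. With 5 of 9 genes past the test, the share was close to the background, and it is the direction and size of single genes that are described below.

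**Figure D2:**
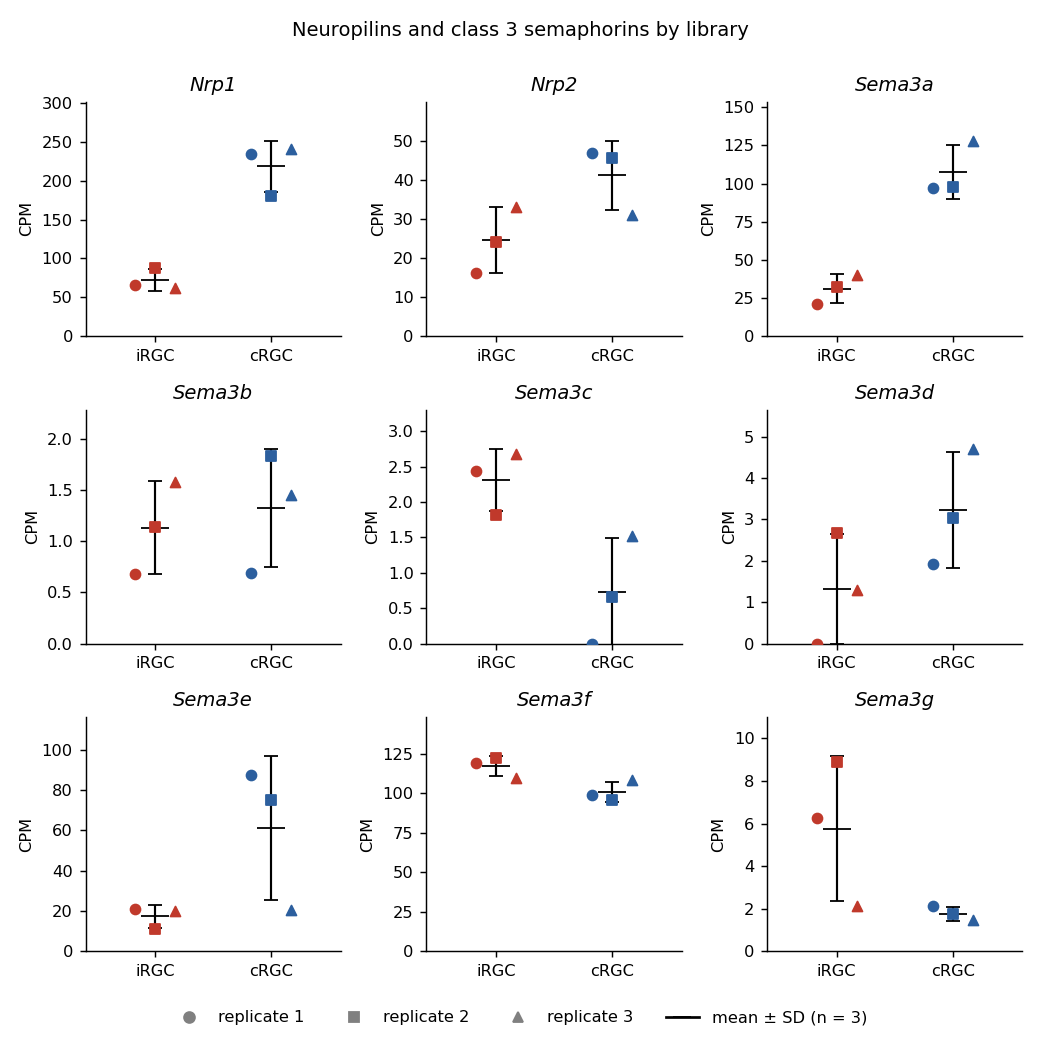
CPM of the 9 genes in each library, on linear axes from 0 that differ between panels, with iRGCs in red and cRGCs in blue; symbols are replicates 1 to 3, and bars are the mean ± SD (n = 3), cut at 0 where the SD exceeds the mean. Nrp1 and Sema3a separate the populations without overlap, the lowest cRGC library of Sema3e (20.7 CPM) lies within the iRGC range, and Sema3b, Sema3c and Sema3d reach at most 4.71 CPM.

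Nrp1 lies on chromosome 8 of GRCm38, at chr8:128358604-128503363 on the plus strand, with 9785 bases of merged exons. It had 66.1, 88.2 and 61.6 CPM in iRGC replicates 1, 2 and 3 and 234, 181 and 241 CPM in cRGC replicates 1, 2 and 3, which rest on 1953 to 7466 counts. Every cRGC library was above every iRGC library, and the highest iRGC library was replicate 2. The cRGC mean was 3.04-fold higher, and the log2 fold change was -1.60 (SE 0.169, 95% confidence interval -1.99 to -1.22, edgeR, Benjamini-Hochberg adjusted p = 0.000245). In all 14 alternative fits the estimate kept its direction and passed the test, and it was -1.55 without iRGC replicate 1 and -1.78 without iRGC replicate 2. Of the merged exons, 80 bases (0.818%) are shared with the microRNA gene Mir1903.

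Nrp2 lies at chr1:62703285-62818695 on the plus strand, with 11842 bases of merged exons. Its levels were 16.2, 24.1 and 33.1 CPM in iRGC replicates 1, 2 and 3 and 46.9, 45.6 and 31.0 CPM in cRGC replicates 1, 2 and 3. The populations overlapped, since iRGC replicate 3 was above cRGC replicate 3. The means were 24.5 ± 8.46 and 41.2 ± 8.80 CPM (SD, n = 3), so iRGCs over cRGCs had a log2 fold change of -0.75 (SE 0.268, 95% confidence interval -1.36 to -0.14, edgeR, Benjamini-Hochberg adjusted p = 0.0528). The Nrp2 call depended on single libraries. Without iRGC replicate 1 the log2 fold change was -0.53 (edgeR, adjusted p = 0.118) and without iRGC replicate 2 it was -0.74 (edgeR, adjusted p = 0.130). Without cRGC replicates 1 and 2 in turn it was -0.66 both times (edgeR, adjusted p = 0.139 and 0.132).

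The balance between the neuropilins needs no library size. Within a library there were 4.08, 3.66 and 1.86 counts of Nrp1 for each count of Nrp2 in iRGC replicates 1, 2 and 3 and 4.99, 3.97 and 7.76 in cRGC replicates 1, 2 and 3. Nrp1 was the more abundant neuropilin in all 6 libraries, and the ratio of iRGC replicate 1 lay above that of cRGC replicate 2. The log2 ratio differed by -0.82 between iRGCs and cRGCs, with p = 0.200 in a two-sided exact permutation test, for which 3 libraries against 3 cannot go below 0.1. With single libraries left out, this difference lay between -1.04 and -0.47. A difference in the balance of Nrp1 and Nrp2 was thus not shown with these 6 libraries. Per kilobase of exon the mean ratio of Nrp1 to Nrp2 was 3.87 in iRGCs and 6.75 in cRGCs.

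Sema3a, the classical repellent that acts through Nrp1, lies at chr5:13125414-13602565 on the plus strand. It had 21.2, 31.9 and 40.0 CPM in iRGC replicates 1, 2 and 3 and 97.0, 97.8 and 128 CPM in cRGC replicates 1, 2 and 3. All cRGC libraries were above all iRGC libraries. The means of 31.0 ± 9.44 CPM and 107 ± 17.6 CPM (SD, n = 3) gave a log2 fold change of -1.79 (SE 0.229, 95% confidence interval -2.31 to -1.27, edgeR, Benjamini-Hochberg adjusted p = 0.000465), a 3.46-fold higher mean in cRGCs. Over 14 alternative fits the log2 fold change of Sema3a lay between -2.03 and -1.58 and passed in each. In CPM, the ligand Sema3a and its receptor Nrp1 were thus both lower in iRGCs.

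Sema3e, which binds Plexin D1, lies at chr5:14025276-14256689 on the plus strand. Its levels were 21.2, 10.9 and 20.1 CPM in iRGC replicates 1, 2 and 3 and 87.5, 75.2 and 20.7 CPM in cRGC replicates 1, 2 and 3. cRGC replicate 3 lay within the range of the iRGC libraries, while the other cRGC libraries were well above it. The log2 fold change was -1.81 (SE 0.480, 95% confidence interval -2.90 to -0.72, edgeR, Benjamini-Hochberg adjusted p = 0.0154), and over 14 alternative fits it lay between -2.21 and -1.47 and passed in each.

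Sema3g, a semaphorin known from vascular cells that binds Nrp2, lies at chr14:31217860-31230352 on the plus strand and is the gene of the family that was higher in iRGCs. It had 6.27, 8.87 and 2.11 CPM in iRGC replicates 1, 2 and 3 and 2.11, 1.76 and 1.45 CPM in cRGC replicates 1, 2 and 3. iRGC replicate 3 was level with cRGC replicate 1, and the highest value was in iRGC replicate 2, the library with the most endothelial, mural and erythroid transcripts. The log2 fold change was 1.69 (SE 0.574, 95% confidence interval 0.39 to 3.00, edgeR, Benjamini-Hochberg adjusted p = 0.0431). Without iRGC replicate 2 it was 1.23 and no longer passed (edgeR, adjusted p = 0.196). It also did not pass without cRGC replicate 2 (1.72, edgeR, adjusted p = 0.104) or cRGC replicate 3 (1.59, edgeR, adjusted p = 0.128), nor with limma voom (1.49, adjusted p = 0.132). The part of vascular cells in the Sema3g level was not tested.

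Sema3f, the repellent that acts through Nrp2, lies at chr9:107681500-107710475 on the minus strand. It had 119, 122 and 109.7 CPM in iRGC replicates 1, 2 and 3 and 98.5, 95.6 and 108 CPM in cRGC replicates 1, 2 and 3. The iRGC libraries were all above the cRGC libraries, but by a small margin, since iRGC replicate 3 and cRGC replicate 3 were close. The log2 fold change was 0.22 (SE 0.104, 95% confidence interval -0.02 to 0.45, edgeR, Benjamini-Hochberg adjusted p = 0.138). Scaled by library totals alone it was 0.42 and passed (edgeR, adjusted p = 0.0118), but this scaling moved the median of all tested genes by 0.21 on the log2 scale, so that Sema3f stood no further from it.

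The other ligands were close to the limit of what was counted. Sema3c, a semaphorin known to attract some axons and to act in the developing heart, had 2.44, 1.82 and 2.68 CPM in the iRGC libraries and 0, 0.656 and 1.52 CPM in the cRGC libraries. All iRGC libraries were above all cRGC libraries, but with 0 to 85 counts a library the 95% confidence interval ran from -1.07 to 4.40 around a log2 fold change of 1.67 (edgeR, Benjamini-Hochberg adjusted p = 0.316). Sema3d had 0, 2.66 and 1.29 CPM in the iRGC libraries and 1.92, 3.04 and 4.71 CPM in the cRGC libraries, and the populations overlapped. Its log2 fold change was -1.29 (95% confidence interval -4.01 to 1.44, edgeR, adjusted p = 0.440). With single libraries left out, the log2 fold change lay between -2.30 and -0.71 for Sema3d and between 1.08 and 2.78 for Sema3c. The 0 counts of Sema3d in iRGC replicate 1 allow a level of up to 0.0965 CPM and those of Sema3c in cRGC replicate 1 one of up to 0.115 CPM, at 3 counts and for counting error alone. Sema3b, the neighbour of Sema3f, had 0.675, 1.14 and 1.58 CPM in the iRGC libraries and 0.692, 1.83 and 1.45 CPM in the cRGC libraries. With a log2 fold change of -0.23 (95% confidence interval -2.05 to 1.59, edgeR, adjusted p = 0.855), a difference in Sema3b was not detectable at this depth.

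Of the 7 ligands, 6 lie on chromosomes 5 and 9, and Sema3g is on chromosome 14. Sema3d, Sema3a, Sema3e and Sema3c follow each other on the plus strand of chromosome 5 between 12383385 and 17730268, with Sema3d at chr5:12383385-12588948 and Sema3c at chr5:17574281-17730268. Sema3b, at chr9:107597674-107609229, and Sema3f are on the minus strand of chromosome 9. Of the genes on chromosome 5, Sema3a and Sema3e passed the test, with log2 fold changes of -1.79 and -1.81. Those of Sema3d (-1.29) and Sema3c (1.67), on either side of them, had wide intervals and did not pass, and differences between these genes were not tested.

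To compare levels between genes, CPM were divided by the merged exon length in kilobases (kb). In iRGCs the order was Sema3f (22.5 CPM per kb), Nrp1 (7.35), Sema3a (2.24), Nrp2 (2.07), Sema3e (1.88), Sema3g (1.27), Sema3c (0.324), Sema3b (0.237) and Sema3d (0.153). The libraries separated Sema3f from Nrp1, Nrp1 from Sema3a and Sema3g from Sema3c, but neighbours from Sema3a to Sema3g and from Sema3c to Sema3d overlapped. In cRGCs the order was Nrp1 (22.3 CPM per kb), Sema3f (19.3), Sema3a (7.75), Sema3e (6.58), Nrp2 (3.48), Sema3g (0.391), Sema3d (0.375), Sema3b (0.277) and Sema3c (0.101). Here the libraries separated Sema3f from Sema3a and Nrp2 from Sema3g, while all other neighbours overlapped. Nrp1 was below Sema3f in iRGCs and overlapped with it in cRGCs on this scale. With the length of the longest transcript in place of merged exons, 16 of the 18 ranks were kept, but the gaps depended on the length used. Nrp1 was then at 60.0 CPM per kb in cRGCs against 29.6 for Sema3f, and at 19.7 against 34.4 in iRGCs.

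The share of each ligand in their summed level was also described. Sema3f made up 80.1%, 79.0% and 76.8% of the summed class 3 semaphorin level per kb in iRGC replicates 1, 2 and 3 and 52.3%, 52.9% and 61.7% in cRGC replicates 1, 2 and 3. All iRGC libraries were above all cRGC libraries in this share. Sema3a made up 7.87 ± 2.58% (SD, n = 3) in iRGCs and 22.4 ± 4.46% in cRGCs, and Sema3e 6.62 ± 2.30% and 18.7 ± 10.5%. The Sema3a shares did not overlap, whereas the Sema3e share of cRGC replicate 3, 6.65%, lay within the range of the iRGC libraries. The sum itself was 28.6 ± 1.09 CPM per kb in iRGCs and 34.8 ± 1.33 in cRGCs. The shares within a library are bound to each other and had no test of their own, and the larger share of Sema3f in iRGCs came with a Sema3f level that did not pass the test and lower levels of Sema3a and Sema3e.

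**Figure D3:**
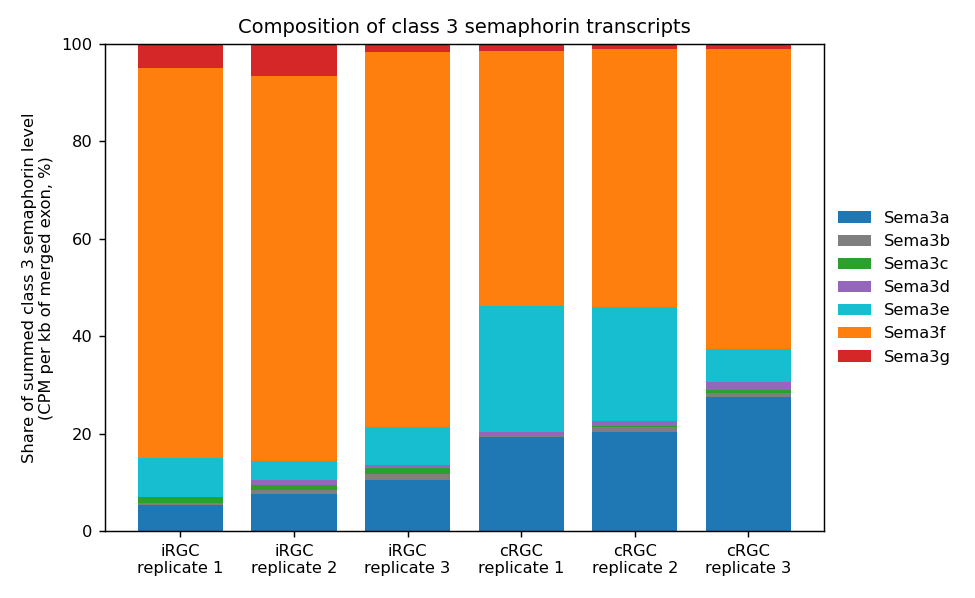
Share of each class 3 semaphorin in the summed level of the 7 genes, in percent of CPM per kb of merged exon, for each of the 6 libraries on an axis from 0 to 100. Sema3f takes the largest share in every library, 76.8% to 80.1% in iRGCs and 52.3% to 61.7% in cRGCs. Sema3a takes more in every cRGC library than in any iRGC library, and Sema3e in cRGC replicates 1 and 2 but not in replicate 3 (6.65%).

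The ganglion cell genes gave another reference for these levels, chosen after the values were seen. Among these genes are Pou4f1, Isl2 and Sncg, which the study reports as enriched in cRGCs. The sum of the 14 genes was 3.69 times as high in cRGCs as in iRGCs, so dividing by it raised all genes in iRGCs against cRGCs. Over all 15941 tested genes the median ratio of the iRGC mean to the cRGC mean was 3.99 on this scale, so a ratio above 1 is not particular to any gene named here. For each 1000 counts of the 14 ganglion cell genes there were 26.6, 25.3 and 11.6 counts of Nrp1 in iRGC replicates 1, 2 and 3 and 17.0, 14.5 and 15.7 in cRGC replicates 1, 2 and 3. The populations overlapped, and the iRGC mean was 1.35 times the cRGC mean, below the median of all genes. For Sema3a the values were 8.52, 9.16 and 7.52 in iRGCs and 7.03, 7.84 and 8.31 in cRGCs, which overlapped with a ratio of means of 1.09. Sema3e also overlapped, with a ratio of 1.13. Among all tested genes, 9.30%, 6.35% and 6.84% had a lower ratio than Nrp1, Sema3a and Sema3e. The division moves all genes of a library alike, so these ranks largely repeat those in CPM and are no separate result.

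Of the 9 genes, 5 were higher in every iRGC library on this scale, against 79.2% of all tested genes. Nrp2, among these, had 6.53, 6.91 and 6.23 counts for each 1000 ganglion cell counts in iRGCs and 3.40, 3.66 and 2.02 in cRGCs, a ratio of means of 2.17, below the median of all genes. Sema3f had 47.9, 34.9 and 20.6 in iRGCs and 7.14, 7.67 and 7.00 in cRGCs, a ratio of 4.74, with 61.9% of the tested genes at a lower ratio. Sema3g had 2.53, 2.54 and 0.397 in iRGCs and 0.153, 0.141 and 0.0945 in cRGCs, a ratio of 14.1. Of the low genes, Sema3b and Sema3c were also higher in every iRGC library, with ratios of means of 3.08 and 13.3, and Sema3d overlapped with a ratio of 1.46. No test was run on this scale.

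**Figure D4:**
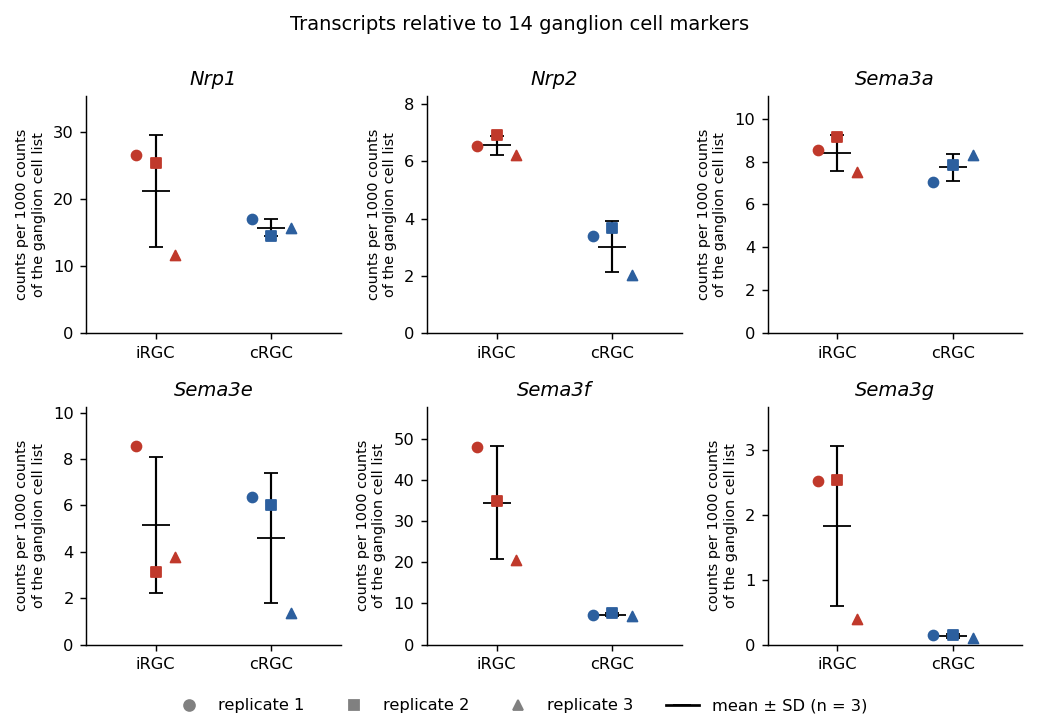
Counts of 6 genes for each 1000 counts of the 14 ganglion cell genes in each library, on linear axes from 0 that differ between panels, with iRGCs in red and cRGCs in blue; symbols are replicates 1 to 3, and bars are the mean ± SD (n = 3). Nrp1, Sema3a and Sema3e overlap between the populations, and Nrp2, Sema3f and Sema3g lie higher in every iRGC library, as do 79.2% of all tested genes on this scale, whose median ratio of iRGCs to cRGCs is 3.99.

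The partners of the neuropilins were taken from lists of the pathway. Of 56 genes in these lists, 55 were tested, with 14 higher and 25 lower in iRGCs and a median log2 fold change of -0.25. Of all tested genes, 23.3% were higher and 23.1% were lower, so the share of higher pathway genes was near the background, and the counts of the single lists below stand against the same shares. Among 13 plexins and adhesion co-receptors, 7 were lower and 1 was higher, with a median of -0.53. The plexins that signal with neuropilins split. Plxna1 had 207, 205 and 229.7 CPM in iRGCs and 517, 414 and 493 CPM in cRGCs (log2 fold change -1.15, SE 0.117), and Plxna3 fell by 1.34 (SE 0.150). Plxna2 and Plxna4 had log2 fold changes of 0.47 and 0.13 and did not pass (edgeR, adjusted p = 0.135 and 0.786). Of the merged exons of Plxna1, 10.7% are shared with Gm26811, and whether the counting used the strand is not given in the sources used here, so its count is uncertain to that extent. Plxnb1, a receptor of class 4 semaphorins, had a log2 fold change of -0.51 (SE 0.105).

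The immunoglobulin adhesion molecules that act with neuropilins were all lower in iRGCs. L1cam, the partner of Nrp1 in the response to Sema3a, had 192, 263 and 412 CPM in iRGC replicates 1, 2 and 3 and 1343, 1120.5 and 1244 CPM in cRGC replicates 1, 2 and 3, a log2 fold change of -2.10 (SE 0.249). Chl1 (-2.37, SE 0.264), Cntn2 (-2.01, SE 0.159) and Nrcam (-0.53, SE 0.144) were also lower. Nrcam associates with Nrp2 and with contactins on commissural axons. For L1cam, Chl1 and Cntn2 the iRGC libraries were highest in replicate 3, the iRGC library with the highest ganglion cell sum, but every cRGC library was higher. The ganglion cell genes, with a median log2 fold change of -1.95, were lower in the same libraries by an amount like that of L1cam, Chl1 and Cntn2, and their part in the levels of these adhesion molecules was not tested.

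Plxnd1, the receptor of Sema3e, went the other way. It had 87.5, 175 and 63.6 CPM in iRGC replicates 1, 2 and 3 and 12.0, 24.8 and 15.6 CPM in cRGC replicates 1, 2 and 3. All iRGC libraries were higher, with the highest in replicate 2, and the log2 fold change was 2.63 (SE 0.398, edgeR, Benjamini-Hochberg adjusted p = 0.000974). In CPM, the mean of the ligand Sema3e was higher in cRGCs and that of its receptor Plxnd1 in iRGCs, although Sema3e overlapped between the populations. Plxnd1 is well known from endothelial cells, whose genes were also highest in iRGC replicate 2, and the part of those cells in its level was not tested. Without iRGC replicate 2 the log2 fold change of Plxnd1 was 2.11 and still passed (edgeR, adjusted p = 0.00249).

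The VEGF branch of Nrp1 signalling was represented by 8 genes, of which 7 were tested. Kdr, Flt1 and Flt4 were higher in iRGCs, and the other 4 did not pass. Vegfa, the ligand, had 176, 157 and 174 CPM in iRGCs and 193, 162 and 116 CPM in cRGCs, with a log2 fold change of 0.11 (SE 0.172, edgeR, adjusted p = 0.674) and an interval of -0.29 to 0.50. Kdr, the receptor that Nrp1 joins, had 366, 320.5 and 418 CPM in iRGCs and 83.7, 103 and 67.6 CPM in cRGCs (log2 fold change 2.12, SE 0.172). Kdr was highest in iRGC replicate 3, where Cdh5 was at 0.158 CPM. Flt1 had 17.9, 49.5 and 2.59 CPM in iRGCs and 1.15, 0.552 and 0.161 CPM in cRGCs, and Flt4 had 1.77, 27.7 and 0.315 CPM against 0.346, 0.311 and 0.452 CPM. Flt1 and Flt4, receptors of endothelial cells, were highest in iRGC replicate 2, whereas Kdr was lowest there among the iRGC libraries. Retinal progenitor genes (14 of 16) were also higher in the iRGC libraries. The part of endothelial cells or progenitors in the Kdr level was not tested. Without iRGC replicate 2, Flt4 had a log2 fold change of 1.48 and did not pass (edgeR, adjusted p = 0.424), while Flt1 (4.04, edgeR, adjusted p = 0.0169) and Kdr (2.21, edgeR, adjusted p = 0.00165) did.

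Inside the cell, 15 of 24 effectors of semaphorin signalling were lower in iRGCs and 4 were higher, with a median log2 fold change of -0.77. The collapsin response mediator proteins, which carry the Sema3a signal to microtubules, were all lower. Crmp1 had a log2 fold change of -1.76 (SE 0.241), Dpysl5 one of -1.66 (SE 0.176), Dpysl3 one of -1.59 (SE 0.172), Dpysl2 one of -1.34 (SE 0.164) and Dpysl4 one of -1.09 (SE 0.163). Dpysl3 had 1033, 1211 and 1684 CPM in iRGCs and 4108, 3789 and 3945 CPM in cRGCs, the most abundant effector per length. Cdk5r1, the activator of the kinase Cdk5 that phosphorylates these proteins, had -1.59 (SE 0.168). Pak1, a kinase downstream of Rac, had -1.42 (SE 0.154), and Mical3, of the actin-oxidising enzymes that plexins activate, had -1.14 (SE 0.116). These are also genes of differentiating neurons, and the ganglion cell sum was lower in the same libraries. The part of ganglion cells in the levels of these effectors was not tested.

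The 4 higher effectors were Rgs3, Rras, Tiam1 and Mical1, named here after their values were seen. Rgs3, a regulator of G protein signalling, had 31.2, 44.2 and 31.6 CPM in iRGCs and 19.6, 19.2 and 12.0 CPM in cRGCs (log2 fold change 1.08, SE 0.236). Tiam1, an exchange factor for Rac, and Mical1 had log2 fold changes of 0.42 and 0.33, and 15.0% of the exons of Mical1 are shared with Smpd2. Rras, a small GTPase that plexins switch off, had 4.28, 6.43 and 4.29 CPM in iRGCs and 2.00, 2.35 and 2.42 CPM in cRGCs. Of these 4 genes, Tiam1 and Mical1 did not pass without iRGC replicate 1 (log2 fold changes of 0.38 and 0.26, edgeR, adjusted p = 0.186 and 0.176), and Rras did not pass without iRGC replicate 2 (0.92, edgeR, adjusted p = 0.209). Gipc1, which binds the tail of Nrp1, had a log2 fold change of 0.06 with an interval of -0.21 to 0.33 and did not pass (edgeR, adjusted p = 0.737).

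All 7 proteases that process semaphorins or shed neuropilins passed the test, 5 higher and 2 lower in iRGCs, with a median of 1.46, where 46.4% of all tested genes passed. Retinal progenitor genes (14 of 16 higher, median log2 fold change 2.43) and neurogenic precursor genes (8 of 8 higher, median 1.82) were higher in the same libraries, and their part in the levels of the proteases was not tested. Adamts1, a secreted metalloprotease, had 174, 127 and 153 CPM in iRGCs and 25.3, 38.6 and 30.5 CPM in cRGCs (log2 fold change 2.26, SE 0.185). Furin, the convertase that activates Sema3a and its relatives, had 60.0, 59.2 and 50.0 CPM in iRGCs and 38.4, 40.1 and 37.2 CPM in cRGCs (0.55, SE 0.126). The sheddases split, with Adam17 higher at 1.46 (SE 0.229) and Adam10 lower at -1.08 (SE 0.202). The convertases Pcsk5 and Pcsk6 were higher too, at levels under 10 CPM and named for that count, but Pcsk6 did not pass without iRGC replicate 2 (log2 fold change 1.89, edgeR, adjusted p = 0.142). Pcsk7 was lower (-0.64, SE 0.130), with 10.1% of its exon bases shared with Rnf214 or Tagln. Among 4 proteins with a CUB domain like that of neuropilins, Neto1 was lower (-2.08, SE 0.635), Dcbld1 was higher (0.84, SE 0.255) and Neto2 and Dcbld2 did not pass. Without iRGC replicate 1, Dcbld2 passed as lower (-0.33, edgeR, adjusted p = 0.0634). Of the merged exons of Dcbld2, 19.1% are shared with St3gal6.

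**Figure D5:**
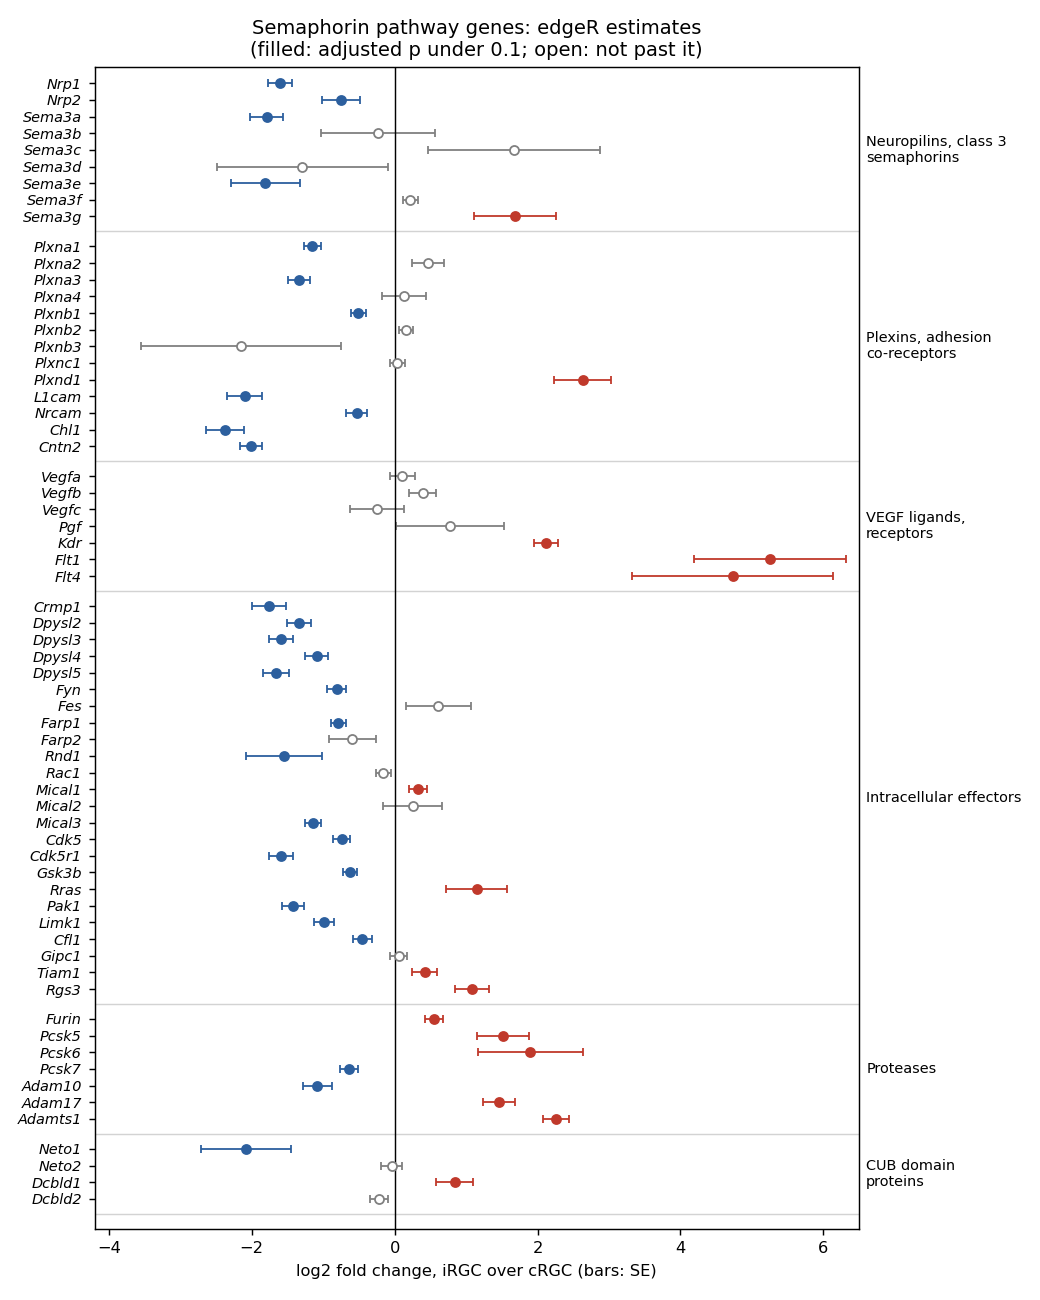
Log2 fold change of iRGCs over cRGCs for the 9 genes and the 55 tested genes of the pathway lists, as edgeR estimates with bars of 1 SE; filled points, red for higher and blue for lower in iRGCs, have an adjusted p-value under 0.1, and open points do not. Adhesion co-receptors and most intracellular effectors lie to the left with Nrp1, Sema3a and Sema3e, while Plxnd1, Kdr, Flt1, Flt4 and 5 of the 7 proteases lie to the right.

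The genes most like each neuropilin were found by the distance between their log2 CPM profiles over the 6 libraries, each centred on its mean. The distance is the root mean square over libraries, in log2 units, among 10274 tested genes with a mean of at least 10 CPM. For Nrp1 the nearest were Gng4 (0.107), Ank2 (0.156), Plekha6 (0.166), Ryr1 (0.167) and Zfp697 (0.173). For Nrp2 they were Dhrs13 (0.102), Ap3m2 (0.146), Mrnip (0.148), Mospd3 (0.149) and Zcchc18 (0.156). Gng4 also ranked the 6 libraries in the same order as Nrp1. Mrnip did not pass the test between the populations (edgeR, adjusted p = 0.242), while the other 9 genes were lower in iRGCs. That direction largely follows from choosing genes like Nrp1 and Nrp2, which were themselves lower in iRGCs.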

How the data were processed

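Of the series, 6 RNA-seq libraries were analysed, and 13 ATAC-seq samples were not analysed here. The authors aligned 50-base reads to mm10 with HISAT2 2.1.0, counted them on Ensembl GRCm38.89 genes with HTSeq 0.11.1 and deposited raw counts per gene for each library. Tallies naming no gene (43.1% to 47.3% of all tallied alignments) stayed out of library sizes and tests. Symbols and exon lengths came from GENCODE M21 of GRCm38 for 46488 identifiers. The test was that of edgeR 4.0.16 in R 4.3.3 (filterByExpr, TMM factors of 0.921 to 1.1, quasi-likelihood test, no block, two-sided), with Benjamini-Hochberg adjustment across the 15941 tested genes. The threshold, an adjusted p of 0.1, is the study's, which used DESeq2. SEs are the absolute log2 fold change over the square root of F. The biological coefficient of variation was 36.3%. Alternatives used DESeq2 1.42.0, limma 3.58.1, other factors, filters and thresholds, single libraries left out and the replicate number as a block. The fits were tested on simulated data.

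The members, lists and tests were chosen with earlier results of these data known. Named are all 9 members and, of each pathway list, up to 8 genes past the threshold with a mean of at least 10 CPM in one population, by absolute log2 fold change, with any VEGF or plexin gene whose level the text needed. Other genes, among them Gipc1, Neto2 and Dcbld2, were chosen after their values were seen. Same-numbered replicates did not deviate together (correlations of -0.0121, -0.0237 and -0.055 over genes), so the numbers were not taken to pair libraries.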

Additional observations from a re-analysis of the deposited data

How the results depend on the processing

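Over 14 alternatives, Nrp1 (log2 fold change -1.78 to -1.39), Sema3a (-2.03 to -1.58) and Sema3e (-2.21 to -1.47) kept their direction and passed the test (edgeR, DESeq2 or limma voom). Nrp2 did not pass with library totals alone (-0.56), and with single libraries left out it lay between -1.04 and -0.53. Its adjusted p-values over all alternatives were 0.0121 to 0.139. Sema3g did not pass with limma voom (1.49) and lay between 1.23 and 2.08 with single libraries left out, with adjusted p-values of 0.00879 to 0.196 over all alternatives. Sema3f passed with library totals alone (0.42) and in no other fit. Sema3b, which never passed, changed sign without cRGC replicate 2 (0.08) and without iRGC replicate 1 (0.04), in a range from -0.55 to 0.08. Sema3c and Sema3d passed in none of 13 alternatives and were left without a value by the filter of at least 10 counts in every library.

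The count of members higher in iRGCs was 2 with library totals alone, 0 with limma voom and 0 to 1 with single libraries left out, and that of members lower was 3 to 4 throughout. Of pathway genes, 10 to 18 were higher, and 16 instead of 25 were lower with the added threshold on the fold change. The log2 ratio of Nrp1 to Nrp2 differed by -1.04 to -0.47 with single libraries left out. With the replicate number as a block, Nrp1 had a log2 fold change of -1.61 (edgeR, adjusted p = 0.00200) and Nrp2 one of -0.79 (edgeR, adjusted p = 0.0995), and the block changed the call of no member. It left 10 pathway genes higher against 14 without it, and 25 lower in both. Low counts limit Sema3b, Sema3c and Sema3d, which had at most 146 counts in a library. The cause of these changes was not tested.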

Other observations

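Marker lists of further retinal cell types and of neighbouring tissues were also measured. Of 6 tested photoreceptor precursor genes, 5 were higher in iRGCs and Rxrg was lower, and the summed level of the list was 807, 641 and 625 CPM in iRGC replicates 1, 2 and 3 and 169.5, 256 and 206 CPM in cRGC replicates 1, 2 and 3 (edgeR, adjusted p under 0.1). Of 7 amacrine cell genes, 6 were higher, with sums of 299, 252 and 356 CPM against 126, 154 and 101 CPM, and of 5 horizontal cell genes only Prox1 was higher, with sums of 265, 284 and 234 CPM against 240.2, 250.4 and 393 CPM. Slc1a3, the glutamate transporter of glia and progenitors, was higher in iRGCs (log2 fold change 2.64, SE 0.272) and Aldh1l1 lower (-1.09, SE 0.363), although without iRGC replicate 2 the latter did not pass (-0.91, edgeR, adjusted p = 0.104). Of the merged exons of Aldh1l1, 13.4% are shared with Gm15756 or Gm45901. Microglial genes were low, with sums of 20.8, 27.1 and 16.7 CPM in iRGCs against 1.11, 4.24 and 2.07 CPM. Fibroblast genes summed to 18.3, 28.3 and 10.2 CPM against 8.73, 10.1 and 10.2 CPM. Pigment epithelium genes summed to at most 8.07 CPM and lens genes to at most 12.0 CPM in a library.

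cRGC replicate 3 had the lowest levels of Sema3e and Nrp2 among the cRGC libraries. It was also the lowest of them for Isl2, a factor of crossing RGCs, with 130.4, 111 and 45.7 CPM in cRGC replicates 1, 2 and 3. The same held for Pou4f1 (861, 672 and 431 CPM), Pou4f3 (48.3, 49.1 and 34.0 CPM) and Thy1 (46.5, 39.1 and 3.19 CPM). The summed ganglion cell level of cRGC replicate 3 was the highest of all 6 libraries. Other genes of that list went the other way. Pou4f2 (191, 196 and 293 CPM), Isl1 (644, 533 and 708 CPM), Nefl, Nefm, Stmn2, Elavl4 and Ebf3 were highest in cRGC replicate 3 among the cRGC libraries. Nefl and Nefm share exon bases with each other, 32.8% of those of Nefl and 19.2% of those of Nefm. Gap43, Rbpms and Sncg were neither lowest nor highest in this library among the cRGC libraries. All these genes were picked after their values were seen. Why Sema3e, Nrp2, Isl2, Pou4f1, Pou4f3 and Thy1 were low in cRGC replicate 3 was not tested.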
